A study of Mus musculus with 16 samples.

Results

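The genes described here are those that are present in 2 copies in both Ts65Dn mice and their euploid littermates. Ts65Dn is a mouse model of Down syndrome that carries a freely segregating extra chromosome made of distal mouse chromosome 16 (MMU16) and the centromeric end of MMU17. Genes were taken as disomic when they lie on neither of these chromosomes, on no sex chromosome and not on human chromosome 21, and were kept when their mean normalized count over the 8 animals of the cross was at least 10. This left 11865 genes on 17 autosomes, 85.9% of the 13807 genes listed for the whole series and 11865 of the 13430 genes that passed the same minimum on any chromosome. Before the minimum, the 17 autosomes held 12093 genes.

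Poly(A) RNA of whole cerebellum was sequenced at postnatal day 6 from 4 Ts65Dn pups and 4 euploid littermates, all from a C57BL/6J x C3H/HeJ background kept as an advanced intercross, and from 4 TcMAC21 pups and 4 euploid littermates of a C57BL/6J (B6) x DBA/2J (D2) background. TcMAC21 mice carry a nearly intact human chromosome 21 long arm, with reported deletions, on a mouse artificial chromosome. No animal was treated. The extra chromosome of Ts65Dn also carries MMU17 genes without a counterpart on human chromosome 21, and littermates of an intercross can differ in their C57BL/6J and C3H/HeJ alleles at any locus. The pups of the Ts65Dn cross came from a pair of litters, but which animal came from which litter is not given in the labels.

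A trisomy acts directly on the dose of the genes in the extra segment. Disomic genes keep their copy number, so a difference in their RNA is not a direct effect of dose. In the first postnatal week the cerebellum is built mainly by granule cell precursors, which divide in the external granule layer in response to Sonic hedgehog made by Purkinje cells and then differentiate into granule cells. This expansion is reduced in Ts65Dn mice. In RNA of a whole tissue, fewer cells of a type and less RNA per cell cannot be told apart.

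Each gene is listed by its chromosome and an assembler's number, with no symbol or position, so cell type markers and pathways could not be examined and the cerebellar origin of the RNA could not be checked against marker genes. Values are normalized counts, that is, read counts divided by a size factor of the library. The reads per library ranged from 11487289 to 21002018 in Ts65Dn (median 16952393) and from 6317856 to 25719969 in euploid littermates (median 12803566), and 3 reads correspond to at most 6.63 normalized counts. The typical disomic gene had a mean of 456 normalized counts, with a range from 10.02 to 382350.

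The genotype labels were checked on the trisomic segment first. Among 68 MMU16 genes past the copy number step, placed without euploid replicate 1, the geometric mean ratio to euploid replicates 2 to 4 was 1.42, 1.48, 1.42 and 1.43 in Ts65Dn replicates 1 to 4. It was 0.989 in euploid replicate 1, so this animal had no raised dose of the segment. The summed normalized counts of Y-linked genes were high in Ts65Dn replicates 2 and 3 (1787 and 1454) and in euploid replicates 1 and 4 (1368 and 2262), and at most 6.7 in the others, so each genotype held 2 animals of either kind.

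The 8 animals were first compared with each other across the disomic genes. The first principal component of log2(normalized count + 1) held 56.2% of the variance. Its scores were -8.16, 6.91, 33.3 and 20.8 in Ts65Dn replicates 1 to 4, and 35.0, -19.9, -28.8 and -39.1 in euploid replicates 1 to 4. Euploid replicates 2, 3 and 4 lay below every Ts65Dn pup, while euploid replicate 1 lay above all of them. The difference between genotypes on this component did not pass an exact permutation test (means 13.2 ± 17.8 and -13.2 ± 33.1, SD, n = 4 each, two-sided p = 0.229). The second component held 19.2%. Its scores were -1.07, 4.05, 14.5 and 22.9 in Ts65Dn and -33.9, -0.605, -4.55 and -1.27 in euploid littermates, and here euploid replicate 1 lay below all other animals. The difference between genotypes (means 10.1 and -10.1) did not pass the exact permutation test (p = 0.0571, where 4 against 4 can reach 0.0286).

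**Figure D1:**
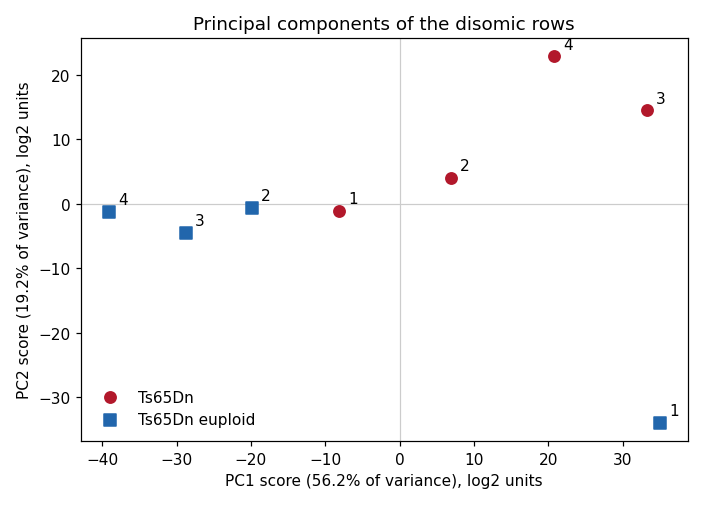
Scores of the 8 animals on the first (x axis) and second (y axis) principal component of log2(normalized count + 1) over 11865 disomic genes, in log2 units; circles are Ts65Dn pups, squares euploid littermates, and digits are replicate numbers. Euploid replicate 1 sits at 35.0 on the first component, beside Ts65Dn replicate 3 at 33.3, and at -33.9 on the second, apart from every other animal.

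The distances between single animals showed the same arrangement. The SD of the log2 differences over disomic genes was 0.27 to 0.30 between any pair of euploid replicates 2, 3 and 4. From euploid replicate 1 to these 3 it was 0.61 to 0.75, larger than from euploid replicate 1 to any Ts65Dn pup (0.47 to 0.56). Ts65Dn replicate 1 was nearest to euploid replicate 2 (0.29). The typical gene had a within-group SD of 0.21 in Ts65Dn and 0.25 in euploid littermates on the log2 scale, and the euploid value was 0.12 without euploid replicate 1, against 0.25 to 0.29 when any other euploid animal was left out. Euploid replicate 1 had 9140152 reads, within the range of the other euploid libraries, and the part of depth, litter or handling in its position was not tested. The main counts below are therefore given with and without this animal.

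With all 8 animals, the differences of disomic genes were small and went both ways. The log2 differences (Ts65Dn minus euploid) had a median of 0.01 and an SD of 0.32, and the typical gene differed by 1.16-fold in either direction. A difference of at least 1.5-fold was seen for 290 genes higher in Ts65Dn and 447 lower, and of at least 2-fold for 36 and 21. These are sizes without a test. Among the 9634 genes with a mean of at least 100, 4 higher and 4 lower were past 2-fold.

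Leaving out euploid replicate 1 widened the distribution without shifting it. The SD of the log2 differences was 0.42 and the median 0.00, and the typical gene differed by 1.22-fold. Past 1.5-fold were now 764 genes higher and 1049 lower, and past 2-fold 96 and 102. Among the genes with a mean of at least 100, those past 2-fold were 26 higher and 38 lower. The median standard error of a gene's log2 difference was 0.17 with all 8 animals and 0.14 with 7. The sign of the difference was opposite in 1218 genes (10.3%).

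No disomic gene passed an adjusted p of 0.05 by limma with all 8 animals, and none of the 13430 genes on any chromosome did (0% called). The lowest limma adjusted p was 0.0902, shared by 4 genes that were all higher in Ts65Dn. At an unadjusted p under 0.05, limma counted 1979 disomic genes (16.7%, 870 higher and 1109 lower), against 17.1% of all genes tested. The quasi-likelihood test of edgeR on the recovered reads also called 0 disomic genes, with 2041 at an unadjusted p under 0.05. DESeq2 called 233, which are described below. The count of 0 also depended on equal weights for the animals. When limma estimated a weight for each animal, 0.135 for euploid replicate 1 and 4.89 for Ts65Dn replicate 2, it called 4916 of the 11865 disomic genes with all 8 animals, 2292 higher and 2624 lower, where 42% of all genes tested were called.

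Without euploid replicate 1, limma called 3254 disomic genes at an adjusted p under 0.05 (27.4%). Of these, 1493 rose (12.6%) and 1761 fell (14.8%) in Ts65Dn. Over all genes tested, 27.8% were called, 12.9% as higher and 14.8% as lower, most of which are the disomic genes themselves. The genes that rose had a median of 1.45-fold, and those that fell a median ratio of 0.664. The same genes had median log2 differences of 0.38 and -0.42 with all 8 animals. Past 1.5-fold were 1477 of the called genes, and past 2-fold 175, with 78 higher and 97 lower. Of the 3254, 2918 (89.7%) were called by limma, edgeR and DESeq2 alike in these 7 animals, where edgeR called 3061 and DESeq2 3699. Over all genes, edgeR called 26.2% and DESeq2 34.2% of those with an adjusted p.

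The calls among 7 animals themselves rested on 2 of the 3 remaining euploid animals. When euploid replicate 4 was also left out limma called 0 disomic genes, and when euploid replicate 3 was left out it called 101. Leaving out euploid replicate 2 instead left 2270 calls. In these 3 fits limma called 0%, 1.03% and 19.5% of all genes tested. Among the Ts65Dn pups, leaving out replicate 1 raised the calls to 5502 (46.6% of all genes tested were called), and leaving out replicates 2, 3 or 4 lowered them to 2373, 2003 and 1274 (20.3%, 17.4% and 11.2% of all genes tested). With the summed Y-linked counts as a covariate, limma called 2020 disomic genes without euploid replicate 1 (17.4% of all genes tested) and 0 with all 8 animals.

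**Figure D2:**
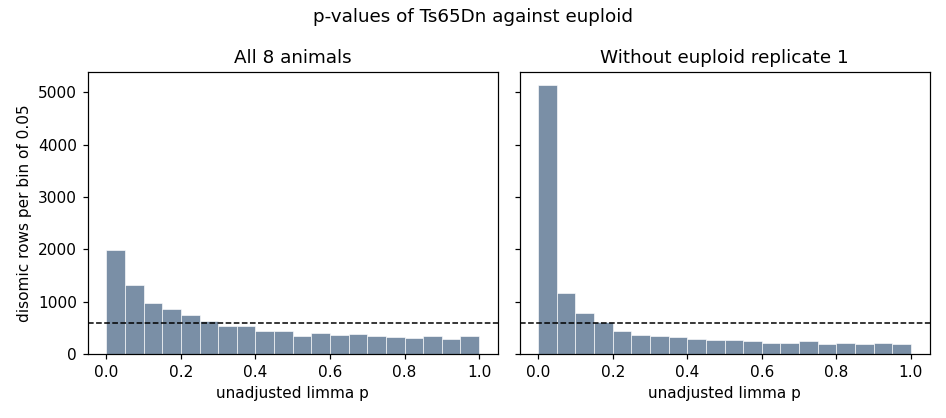
Number of disomic genes (y axis) per bin of 0.05 in unadjusted limma p (x axis) for Ts65Dn against euploid, with all 8 animals (left) and without euploid replicate 1 (right); the dashed line is the mean over bins. The lowest bin holds 1979 genes on the left and 5134 on the right.

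Euploid replicate 1 did not enter the fit that chose the 3254 genes, but it was set aside because its components and distances had already placed it near the Ts65Dn pups, and its values counted in the minimum mean. Its values on these genes are therefore given as a description. On a scale where 0 is the mean of euploid replicates 2 to 4 and 1 the mean of the Ts65Dn pups, its median position was 1.15 (interquartile range 0.746 to 1.55). It lay on the Ts65Dn side of the midpoint for 2805 genes (86.2%), for 1276 of the 1493 that rose and 1529 of the 1761 that fell. For 1702 genes (52.3%) its value was inside the range of the 4 Ts65Dn pups, and for 192 (5.90%) inside the range of the other 3 euploid animals. On the 175 genes past 2-fold the median was 1.05. On most of these genes, the euploid animal that did not enter the fit was thus nearer to the trisomic pups than to its euploid littermates.

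**Figure D3:**
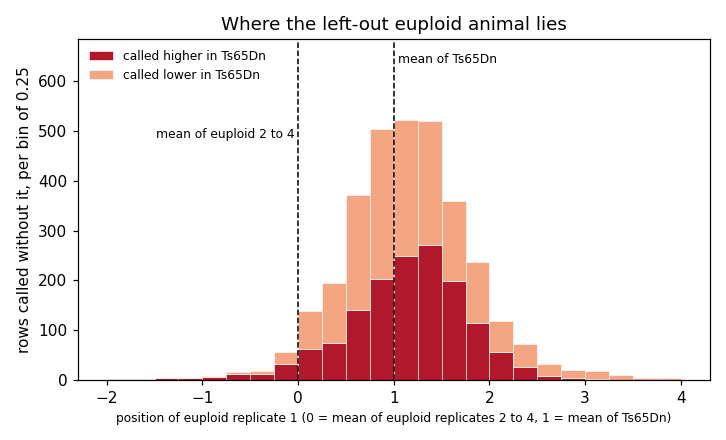
Position of euploid replicate 1 (x axis, 0 for the mean of euploid replicates 2 to 4 and 1 for the mean of the 4 Ts65Dn pups, log2 scale) over the 3254 disomic genes called by limma without it, as genes per bin of 0.25 (y axis) and stacked by the direction of the call; 12 genes lie outside the axis. Most of the genes lie between 0.5 and 2, with a median of 1.15.

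The same measure was taken for every other animal, each on the genes with an unadjusted limma p under 0.05 in the fit that left it out, with 0 for the rest of its own group and 1 for the other genotype. The median position was 1.16 for euploid replicate 1 on 5134 genes, 0.23 for euploid replicate 2, -0.17 for euploid replicate 3 and -0.28 for euploid replicate 4. Among the Ts65Dn pups it was 0.73 for replicate 1 on 2851 genes, 0.35 for replicate 2, -0.27 for replicate 3 and -0.17 for replicate 4. The animals that set 0 and 1 also chose the genes, which widens the gap between these marks, so the positions are a description. On its 2851 genes, Ts65Dn replicate 1 was thus the other animal nearer to the opposite genotype than to its own. These 2 animals are those labelled replicate 1, and their animal codes in the labels, AM12 and AM13, are apart from the AM21 to AM28 of the other 6; what the codes stand for is not stated. When both were left out, limma called the 5502 disomic genes given above, beside 46.6% of all genes tested.

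Genes whose 4 Ts65Dn values all lay on one side of the 4 euploid values are independent of any model of the spread. There were 1002 (8.45%), with 483 higher (4.07%) and 519 lower (4.37%) in Ts65Dn. Over all genes tested the share was 8.76%, with 4.53% higher and 4.23% lower. The median was 1.31-fold for the higher genes and a ratio of 0.757 for the lower ones, and 16 higher and 7 lower genes were past 2-fold. Without euploid replicate 1, 4589 disomic genes (38.7%) did not overlap, 2194 higher and 2395 lower, and the share over all genes tested was 38.9%. Of the 1002 genes, 531 were also called by limma without euploid replicate 1, which is 53.0% of the 1002 and 16.3% of the 3254.

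DESeq2 called 233 disomic genes with all 8 animals, 94 higher and 139 lower, or 2.08% of those with an adjusted p, against 2.51% of all such genes on any chromosome. All 233 were among the 3254 limma calls made without euploid replicate 1, and in 197 the groups of 4 did not overlap. The genes that rose had a median of 1.47-fold and those that fell a median ratio of 0.617, and the smallest log2 difference was 0.32. Euploid replicate 1 entered this test. On these genes its median position was 0.357, and it lay past the midpoint for 85. Since its values helped to choose these genes, this is a description.

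To show single genes, 4 were taken, the 2 higher and the 2 lower ones with the smallest unadjusted limma p among those whose groups did not overlap. The files do not pair them with gene symbols, so what they encode is not given. The gene chr10.58199 had 76.5, 70.3, 84.6 and 92.9 normalized counts in Ts65Dn replicates 1 to 4 and 30.0, 33.5, 33.2 and 21.2 in euploid replicates 1 to 4. Its lowest Ts65Dn value was above every euploid one, euploid replicate 1 included, with a log2 difference of 1.44 (SE 0.209, limma adjusted p = 0.0902). The gene chr10.69580 had 2469, 2568, 3397 and 2504 in Ts65Dn against 1485, 1589, 1339 and 1174 in euploid littermates, and the log2 difference was 0.96 (SE 0.141, limma adjusted p = 0.0902). Its groups were again apart, with Ts65Dn replicate 3 the highest. In the TcMAC21 cross chr10.69580 had 1791, 2706, 2891 and 2004 in trisomic pups and 1451, 1674, 1535 and 1100 in euploid littermates, also without overlap (log2 difference 0.69, SE 0.186, limma adjusted p = 0.350), while the TcMAC21 groups overlapped for chr10.58199 (log2 difference 1.02, SE 0.444, limma adjusted p = 0.679).

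Among the lower genes, chr8.462461 had 290, 200, 207 and 213 normalized counts in Ts65Dn and 365, 353, 413 and 489 in euploid littermates (log2 difference -0.83, SE 0.163, limma adjusted p = 0.180). Here Ts65Dn replicate 1 was nearest to the euploid range. The gene chr1.37295 had 250, 256, 205 and 185 in Ts65Dn against 381, 339, 360 and 380, with euploid replicate 1 the highest of all animals (log2 difference -0.72, SE 0.142, limma adjusted p = 0.180). None of the 4 genes passed the limma threshold with all 8 animals of the Ts65Dn cross. In the TcMAC21 cross the groups overlapped for both lower genes, with log2 differences of -0.38 (SE 0.198, limma adjusted p = 0.685) for chr8.462461 and -0.06 (limma adjusted p = 0.917) for chr1.37295. In the Ts65Dn cross, all 4 passed the threshold without euploid replicate 1, with limma adjusted p of 0.00683, 0.00672, 0.00921 and 0.0110 in the order given, and all 4 were called by DESeq2 with all 8.

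**Figure D4:**
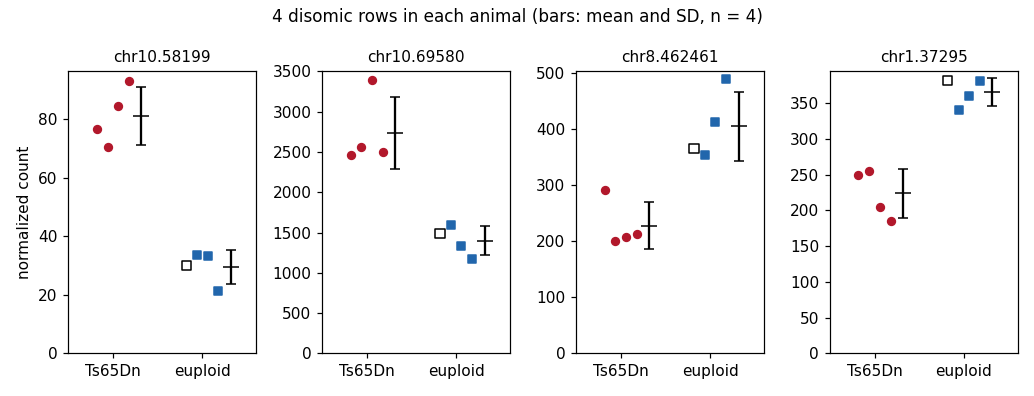
Normalized counts (y axis, from 0) of chr10.58199, chr10.69580, chr8.462461 and chr1.37295 in each Ts65Dn pup (circles) and euploid littermate (squares, open for euploid replicate 1); bars show the mean and SD of 4 animals. The genes were chosen among those whose 2 groups do not overlap, so euploid replicate 1 lies on the side of its littermates by that choice.

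The direction of the differences varied with the level of the gene. At mean normalized counts of 10 to 50, 11.2% of 1287 genes were called without euploid replicate 1, and 52.8% of the called genes were higher in Ts65Dn. Between 50 and 200 the share called was 23.8% of 2308 genes, and from 200 to 1000 it was 30.3% of 4964. In both bins most calls were of lower genes, with 35.2% and 37.4% higher. From 1000 to 5000, 31.8% of 2963 genes were called, and at 5000 or more 33.2% of 343. Higher genes made up 60.6% and 79.8% of these calls. Abundant genes were thus called mostly as higher, and genes of middle level mostly as lower.

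The same arrangement was present with all 8 animals. Of the genes at 5000 or more, 32 were higher and 5 lower without overlap between the groups of 4, and DESeq2 called 11 higher and 0 lower. From 200 to 1000, the genes without overlap were 173 higher and 255 lower, and DESeq2 called 32 and 83. Genes without overlap made up 10.8% and 8.62% of these bins, against 8.76% of all genes tested. DESeq2 called 2.51% of all genes with an adjusted p. Of all genes in the bins, called or not, 71.1% and 47.6% were higher in Ts65Dn with all 8 animals. Animal by animal, the mean log2 deviation of the 3306 genes at 1000 or more, less that of the 2231 genes under 100, was -0.03, -0.05, 0.19 and 0.05 in Ts65Dn replicates 1 to 4 and -0.04, -0.02, -0.04 and -0.04 in euploid replicates 1 to 4. The difference between genotypes was 0.07 and did not pass an exact permutation test over the 4 and 4 animals (two-sided p = 0.343). It was 0.02 without Ts65Dn replicate 3, whose value was the highest. With genes at 5000 or more in place of 1000 it was 0.14 (exact permutation p = 0.0857).

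The most abundant disomic gene, on chromosome 9, had a lower mean in Ts65Dn, unlike most abundant genes. It had 279780, 239760, 366820 and 286420 normalized counts in Ts65Dn replicates 1 to 4 and 675390, 320150, 454360 and 436110 in euploid replicates 1 to 4. It took 1.73% to 2.4% of all normalized counts in Ts65Dn and 2.30% to 4.67% in euploid littermates. The groups overlapped, since euploid replicate 2 was below Ts65Dn replicate 3, and the log2 difference of -0.65 (SE 0.231) did not pass limma (adjusted p = 0.231, and 0.0844 without euploid replicate 1).

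By chromosome, calls were spread over all 17 autosomes. The share of genes called without euploid replicate 1 was between 23.8% on chromosome 6 and 30.9% on chromosome 12. The direction of the calls was not spread evenly. On chromosome 7, 204 of 288 called genes were higher in Ts65Dn (70.8%), and on chromosome 19 the share was 65.0%. On chromosomes 3, 18 and 13 it was 21.4%, 22.3% and 23.6%. Over all disomic genes, 1493 of the 3254 called genes were higher. With all 8 animals, DESeq2 called 17 genes higher and 9 lower on chromosome 7, and 3 higher and 13 lower on chromosome 3. Over all disomic genes it called 94 higher and 139 lower, or 2.08% of those with an adjusted p. Of all genes on chromosomes 7 and 3, called or not, 66.9% and 40.1% were higher with all 8 animals. On chromosome 13 DESeq2 called 0 higher and 7 lower, and the groups of 4 did not overlap in 14 higher and 17 lower genes. On chromosome 18 these counts were 1 and 6, and 11 and 17. On chromosome 19 the DESeq2 calls with all 8 animals went the other way, with 1 gene higher and 5 lower. The groups of 4 did not overlap there in 17 higher and 20 lower genes. The median log2 difference of all genes on chromosome 19 was nonetheless positive, 0.07 with all 8 animals and 0.09 without euploid replicate 1. The median log2 difference of all genes on chromosome 7 was 0.14 with all 8 animals and 0.18 without euploid replicate 1, and on chromosome 3 it was -0.09 and -0.15.

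Chromosome means were compared animal by animal, as the mean log2 deviation of a chromosome's genes from the mean of all 8 animals, centred over all disomic genes. On chromosome 7 the values were -0.02, 0.02, 0.11 and 0.10 in Ts65Dn replicates 1 to 4 and 0.05, -0.07, -0.08 and -0.11 in euploid replicates 1 to 4. On chromosome 13 they were 0.03, -0.01, -0.10 and -0.07 in Ts65Dn and -0.12, 0.06, 0.08 and 0.13 in euploid littermates. On both chromosomes euploid replicate 1 was on the side of Ts65Dn replicates 3 and 4. With all 8 animals the genotypes overlapped on each of the 17 chromosomes, and the smallest exact permutation p was 0.0857 (Benjamini-Hochberg adjusted over 17, p = 0.324). Without euploid replicate 1 they did not overlap on 15 of 17, the exceptions being chromosomes 2 and 9.

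**Figure D5:**
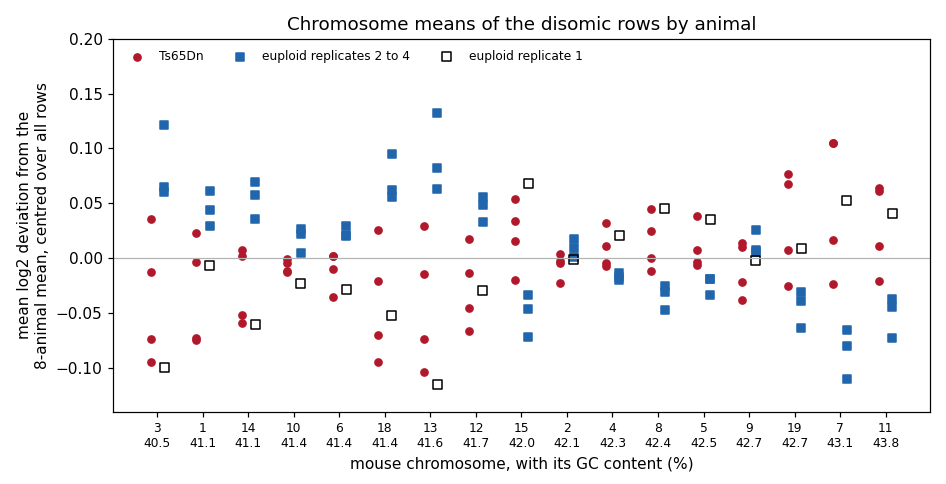
Mean log2 deviation of each chromosome's disomic genes from the 8-animal mean, centred over all disomic genes (y axis), for each animal on 17 chromosomes ordered by GC content (x axis, in percent); circles are Ts65Dn, filled squares euploid replicates 2 to 4 and open squares euploid replicate 1. Chromosome 7 is higher and chromosomes 3 and 13 are lower in most Ts65Dn pups, and the open squares lie on the Ts65Dn side on these chromosomes.

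The size of a chromosome's difference went along with its base composition and gene density. Over the 17 chromosomes, the difference between genotypes correlated with the GC content of the chromosome in GRCm39 (Pearson r = 0.803, Spearman rho = 0.784 with all 8 animals, r = 0.805 without euploid replicate 1) and with its number of protein-coding genes per Mb (r = 0.838). In the TcMAC21 cross, the difference between genotypes correlated with GC content alike (r = 0.833, rho = 0.828). These are descriptions over chromosomes that share the same 8 libraries of a cross. In single animals, r between GC content and the deviation from the 8-animal mean was 0.63 to 0.80 in Ts65Dn replicates 2 to 4 and 0.72 in euploid replicate 1. It was -0.73 in Ts65Dn replicate 1 and -0.76 to -0.81 in euploid replicates 2 to 4. The part of base composition in the differences between genotypes was not tested, since the genes have no sequence in the files.

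Genes that follow each other in the numbering of a chromosome differed alike. The correlation of the log2 differences of neighbours over 11848 pairs was 0.281 with all 8 animals and 0.320 without euploid replicate 1. When each chromosome was divided into blocks of 25 genes, 475 in all, limma called 0 blocks with all 8 animals (lowest adjusted p = 0.221), with 97 at an unadjusted p under 0.05, 45 of them higher. Neither edgeR nor DESeq2 was run on blocks. Their log2 differences lay between -0.35 and 0.36. Without euploid replicate 1, limma called 268 blocks (56.4%), 133 higher and 135 lower. The left-out animal had a median position of 1.18 on these blocks and was past the midpoint in 246.

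The TcMAC21 cross was also used to test whether the disomic difference of Ts65Dn was another one there. With all 16 animals, limma tested in 11785 disomic genes whether the genotype difference was unequal in the 2 crosses. It called 0 of them, with 275 (2.33%) at an unadjusted p under 0.05 and a lowest adjusted p of 0.0766. Without Ts65Dn euploid replicate 1 it again called 0, with 640 (5.43%) at an unadjusted p under 0.05 and a lowest adjusted p of 0.0555. No other tool was run on this difference between crosses. A disomic difference particular to Ts65Dn was therefore not shown for any gene at this number of animals.

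Values in the 2 crosses are given side by side. The SD of the log2 differences of disomic genes was 0.32 in Ts65Dn and 0.26 in TcMAC21, and the groups of 4 did not overlap in 8.45% and 4.23% of the genes. Chromosome 7 was 0.10 higher in mean log2 in Ts65Dn and 0.07 higher in TcMAC21, and chromosome 3 was lower by 0.07 in both. Scored with the gene weights of the first Ts65Dn component, TcMAC21 replicates 1 to 4 had 1.72, -4.24, 14.5 and 28.6, and their euploid littermates -9.92, -23.9, -5.75 and -0.957. TcMAC21 pups were higher on average, but the groups overlapped and the difference did not pass an exact permutation test (means 10.1 ± 14.6 and -10.1 ± 9.90, SD, n = 4 each, two-sided p = 0.0571). The library with the highest score, TcMAC21 replicate 4, was also the shallowest of that cross, with 7704334 reads.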

How the data were processed

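Samples were grouped by genotype and replicate number from the labels. Per the labels and the study's methods, the authors mapped reads with STAR 2.4.2a to mm39 with human chromosome 21 appended, assembled genes with PsiCLASS over all samples and normalized with DESeq2. Normalized counts were deposited as signal values rounded to 2 decimals, and 100% of them came out as whole reads, within that rounding, once divided by what a single read was worth. No pair of libraries was identical.

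The main test was limma 3.58.1 (lmFit and a trended eBayes), fitting genotype to log2(normalized count + 1) over all 13430 genes with a mean of at least 10, with Benjamini-Hochberg adjustment and a threshold of 0.05. Because of the added 1, low genes have understated fold changes. The recovered reads were also tested in R 4.3.3 by DESeq2 1.42.0 and by the quasi-likelihood test of edgeR 4.0.16, and adjusted p that DESeq2 left empty were kept empty (669 disomic genes). Further alternatives were a pseudocount of 0.1, no minimum or a minimum mean of 50, quantile normalization, array weights, a Y-linked covariate, a replicate block, a single fit of all 16 animals, and the omission of every animal by itself. Single values were compared by exact permutation tests over animals, two-sided. Tests were checked on simulated counts with independent noise in each gene and no animal set apart. That check cannot tell how many calls in these data are false. Principal components, plots and permutation tests were made in Python 3.11.15 (matplotlib 3.10.9, SciPy 1.17.1, NumPy 2.4.6, pandas 2.3.3). GC content and genes per Mb are from GRCm39 (GENCODE annotation), and blocks assume that identifier numbers follow position.

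Genes named singly were the 2 higher and 2 lower disomic genes with the smallest unadjusted limma p among those whose groups do not overlap. No cell type markers or gene lists could be used without symbols. The members, tests and this rule were chosen with earlier results of these data known. The within-group spread without euploid replicate 1 was added after seeing the data. Intervals of reads cover counting error only. Replicates are separate animals, and p-values measure the spread between these animals.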

Additional observations from a re-analysis of the deposited data

Results flagged for a closer look

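In 52 groups of 4 values checked for a sample far from the rest, 5 had a gap above the critical share of the range (0.829), where chance flags about 1 in 20. Euploid replicate 1 stood apart on the second principal component, at -33.9, and in the chromosome means of chromosome 4, at 0.0203, and chromosome 6, at -0.0283. Ts65Dn replicate 3 was apart for chr10.69580, at 3397 normalized counts. Ts65Dn replicate 1 was apart for chr8.462461, at 290.5 normalized counts.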

How the results depend on the processing

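The count of 0 disomic calls with all 8 animals was above 0 in 5 of the alternatives run and 0 in the others. By limma these were array weights (4916 calls), all 16 animals in one fit (1), both replicate 1 animals left out (5502) and euploid replicate 1 left out (3254), and DESeq2 called 233. Leaving out each animal gave 0 to 3254 calls, and euploid replicate 1 was the only animal whose omission gave any. Without euploid replicate 1, the 3254 calls (beside 27.8% of all genes tested) were 2020 with the Y-linked covariate (beside 17.4%). They were 5477 with array weights, for which the share over all genes was not counted. When a further animal was left out, they were between 0 and 5502. Genes at an unadjusted p under 0.05 numbered 1032 to 5134 as each animal was left out, against 1979. The causes were not tested.

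Genes without overlap numbered 1002, and 4589 without euploid replicate 1, the number of chromosomes without overlap was 0 to 15 as each animal was left out (1 without Ts65Dn replicate 1), and called blocks went from 0 to 268. The SD of log2 differences was 0.287 to 0.419, and the euploid within-group SD 0.119 against 0.252. The level trend was 0.02 to 0.10 as each animal was left out, with exact permutation p from 0.114 to 0.686, and 0.14 with abundant genes set at 5000 or more (p = 0.0857). The 4 genes named singly kept their direction in all alternatives run for them, as groups chosen not to overlap must when an animal is left out.

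With the replicate number as a block, limma called 0 disomic genes, with 1087 at an unadjusted p under 0.05. The deviations of same-numbered animals correlated by -0.426, 0.0749, -0.288 and -0.129, so a pairing by number was not shown. Per the methods, each trisomic pup was collected with a euploid littermate, and the labels do not say which animals form a pair. With 4 animals a group and as few as 6317856 reads in a library, differences of low genes were the least precise, with a median standard error of 0.31 at mean counts of 10 to 50 and 0.14 at 1000 to 5000.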
